A study of Mus musculus with 36 samples.

Results

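The 10 genes described here encode the subunits of the transcription factor NF-κB and proteins that act on it. They are Nfkb1, Nfkb2, Rela, Relb, Nfkbia, Nfkbie, Nfkbiz, Tnfaip3, Bcl3 and Traf1. They were taken by name from the 49568 gene names that 2 tables of raw read counts list, 1 table for cells given IFNγ and 1 for cells given IL-4. All 10 names were present once in each table, and all 10 genes passed the filter on low counts in every fit, with a lowest count of 46 reads in any library. Cells were RAW264.7, a mouse macrophage cell line, so every library came from 1 line. The groups were PBS, SE+IFNγ and PE+IFNγ in the first table and PBS, SE+IL-4 and PE+IL-4 in the second, with 6 libraries each. SE and PE are short synthetic peptides from the β chain of HLA-DR, the first with the shared epitope of alleles linked to rheumatoid arthritis risk (SE) and the second with the protective epitope (PE). Peptides were given at 100 µg/ml with 5 ng/ml of IFNγ or IL-4, and RNA was taken at 72 h. The control's titles name PBS beside IFNγ or IL-4 and do not say whether that cytokine was given. The paper's figure legends describe cytokine cultures with or without a peptide, and its methods describe cells with or without the cytokine. The PBS libraries were without the response to either cytokine, and whether they received it cannot be settled here. In a difference from PBS the cytokine and the peptide therefore cannot be told apart, while SE against PE compares the peptides under 1 cytokine. Below, a change from PBS with SE, with PE or with either peptide is that of the group given peptide and cytokine. Replicates 1–3 and replicates 4–6 were labelled by different schemes and are shown apart.

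NF-κB is a family of dimeric transcription factors that macrophages use to switch on inflammatory genes. Rela and Relb carry activation domains, while Nfkb1 and Nfkb2 encode precursors that are processed to the DNA-binding partners p50 and p52. In resting cells the IκB proteins, among them IκBα (Nfkbia) and IκBε (Nfkbie), hold the dimers in the cytoplasm. Many genes of the pathway are themselves targets of NF-κB and feed back on it. IκBα is made anew after activation, A20 (Tnfaip3) removes and edits ubiquitin chains on upstream signalling proteins, and TRAF1 is an adaptor of TNF receptor signalling. Bcl-3 (Bcl3) and IκBζ (Nfkbiz) are nuclear relatives of IκB that act as cofactors on p50 or p52 dimers at selected promoters.

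Matches to the DNA consensus of NF-κB (the κB consensus) are shown first, because several members are known targets of the factor they restrain. RefSeq promoter windows of GRCm38.p6, from 250 bases before to 50 bases after a start site, were found for 7 of the 10 genes. A match to the κB consensus on either strand was present in a window of 5 of these 7 genes (Bcl3, Nfkb2, Nfkbia, Nfkbie and Tnfaip3), against 9.55% of the 27025 genes with such a window. The 250 bases upstream of Nfkbia (chr12:55492648-55492897, minus strand) and of Nfkbie (chr17:45555450-45555699, plus strand) overlap no annotated exon. They are shown for the inhibitors that were lower in the libraries with an IFNγ response, 5′ to 3′ on the strand of the gene, with the κB match in capitals.
Nfkbia: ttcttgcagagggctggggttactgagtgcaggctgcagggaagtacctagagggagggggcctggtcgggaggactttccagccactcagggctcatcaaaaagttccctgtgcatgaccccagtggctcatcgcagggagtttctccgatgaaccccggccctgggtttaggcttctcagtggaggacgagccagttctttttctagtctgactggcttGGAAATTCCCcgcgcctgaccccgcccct
Nfkbie: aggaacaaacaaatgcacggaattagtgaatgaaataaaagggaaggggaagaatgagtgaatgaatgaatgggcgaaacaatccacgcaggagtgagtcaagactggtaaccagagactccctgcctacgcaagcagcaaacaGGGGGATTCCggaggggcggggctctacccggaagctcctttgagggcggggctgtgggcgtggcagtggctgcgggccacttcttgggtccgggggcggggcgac
For the other 3 genes only the match and 10 bases on each side are shown, at chr19:46304688-46304717 (Nfkb2, plus strand), chr10:19015403-19015432 (Tnfaip3, minus strand) and chr7:19822734-19822763 (Bcl3, minus strand), all of which overlap annotated exons.
Nfkb2: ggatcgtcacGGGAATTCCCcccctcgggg
Tnfaip3: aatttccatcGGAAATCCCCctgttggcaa
Bcl3: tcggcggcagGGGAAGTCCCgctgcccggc
Relative to the start site the match began at position -29 in Nfkbia, -106 in Nfkbie, -39 in Nfkb2, -12 in Tnfaip3 and 3 in Bcl3, and the windows of Nfkb2 and Tnfaip3 held further matches that are not shown. A match is a description of letters and not a measured binding site.

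Before the results, the labels were checked against marker genes. All 8 macrophage markers examined were above 1 CPM (read counts scaled to the TMM-normalized library size) in every library, while the summed level of the markers of T cells, B cells, fibroblasts, epithelial and endothelial cells did not exceed 2.71 CPM for any of these lists in any library. The libraries labelled SE+IFNγ replicates 4–6 went against their label. Irf1, an early IFNγ target, was at 64.3, 66.5 and 72.7 CPM in SE+IFNγ replicates 1–3 but at 13.7, 14.6 and 13.1 CPM in replicates 4–6, beside 13.6 to 16 CPM in the 6 PBS libraries. Gbp2, a guanylate-binding protein induced by IFNγ, was at 176 to 217 CPM in the first 3 libraries and at 0.763, 0.885 and 0.78 CPM in the others. Over 14 IFNγ response genes the mean log2(CPM + 0.1) was 6.14 ± 0.09 (SD, n = 3) in SE+IFNγ replicates 1–3 and 0.36 ± 0.23 in replicates 4–6, against 0.21 ± 0.03 and 0.50 ± 0.13 in PBS and 6.04 ± 0.01 and 6.43 ± 0.06 in PE+IFNγ. Each result in IFNγ is therefore given for replicates 1–3, for replicates 4–6 and for all libraries. Single response genes also differed between SE+IFNγ and PE+IFNγ in replicates 1–3, in either direction. Gbp2 was lower in PE+IFNγ, at 77.4 to 82.3 CPM. Irf1 was higher there, at 98.2 to 116 CPM, as were Ciita (12.4 to 13.6 against 7.92 to 9.74 CPM) and H2-Aa (786 to 876 against 520 to 591 CPM). The part of these differences in SE against PE of the members was not tested. Library totals ran from 20.7 M to 63.2 M counts in the IFNγ table and from 17 M to 30.6 M in the IL-4 table. The sets also differed in RNA content, with histone genes at 0.00722% to 0.0187% of counts in replicates 1–3 and 0.236% to 0.629% in replicates 4–6 of the IFNγ table, and the 7SL and 7SK genes (Rn7s) at 0.000461% to 0.00538% and at 15% to 20.4%. Genes known to respond to endotoxin differed between the groups as well. Over 10 of them the mean log2(CPM + 0.1) in replicates 1–3 was 0.51 ± 0.19 (SD, n = 3) in PBS, 2.43 ± 0.16 in SE+IFNγ and 1.22 ± 0.12 in PE+IFNγ, and in replicates 4–6 it was 1 ± 0.56, 0.38 ± 0.02 and 1.18 ± 0.09. With IL-4 it lay between -0.17 and 0.48 in all groups. The part of these genes in the members' results was not tested. Single libraries that stood apart were SE+IL-4 replicate 4, with 30.3 CPM of Lcn2, an acute phase gene, against 1.11 and 1.5 CPM in replicates 5 and 6, and PBS replicate 6 of the IFNγ table, with 116 CPM of Lcn2 against 16.2 and 15 CPM.

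**Figure D1:**
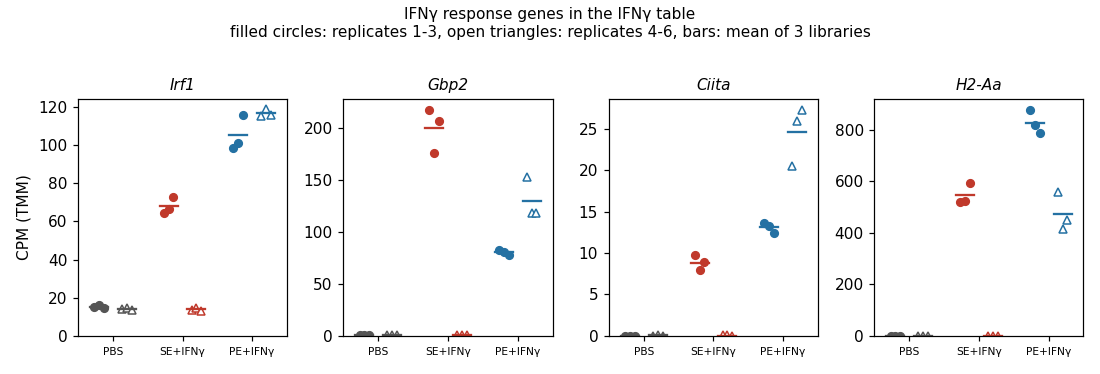
Level (CPM, TMM normalized, linear axes from 0) of 4 IFNγ response genes in each of the 18 libraries of the IFNγ table, by group, with filled circles for replicates 1–3, open triangles for replicates 4–6 and a bar at the mean of 3 libraries. The libraries labelled SE+IFNγ replicates 4–6 sat at the level of PBS for all 4 genes, for example at 13.1 to 14.6 CPM of Irf1, while the PE+IFNγ libraries of the same replicates were at 115 to 119 CPM.

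The members spanned a wide range of levels. Per kilobase of exon, Nfkbia was the most abundant in the PBS libraries of both tables, at 32.8 ± 2.07 CPM per kb (SD, n = 3) in replicates 1–3 of the IFNγ table. Rela followed at 20.1 ± 2.14, Nfkb2 at 11.1 ± 1.29, Nfkb1 at 6.26 ± 0.348 and Relb at 5.98 ± 0.636 CPM per kb, and the libraries of these last 2 overlapped. Nfkbie and Bcl3 came next at 4.67 ± 0.391 and 3.97 ± 0.382 CPM per kb and also overlapped. The least abundant were Tnfaip3 at 1.63 ± 0.208, Traf1 at 1.33 ± 0.299, which overlapped it, and Nfkbiz at 0.829 ± 0.12 CPM per kb. Among the PBS libraries of the IL-4 table, replicates 1–3 held the same first 7 genes in the same order, from 54.7 ± 6.34 CPM per kb for Nfkbia to 6.73 ± 0.865 for Bcl3. The sets differed within PBS too. PBS libraries of replicates 1–3 and 4–6 did not overlap for 9 of the 10 genes in the IFNγ table, beside 75.2% of all genes, and for 6 of 10 in the IL-4 table, beside 71%. The widest gaps were those of Nfkbiz, which was higher in replicates 4–6 (4.16 against 14.1 CPM in the IFNγ table and 7.01 against 23.2 CPM in the IL-4 table), and of Bcl3, which was lower (9.82 against 4.65 CPM and 16.7 against 6.49 CPM). The part of RNA content in these gaps was not tested.

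**Figure D2:**
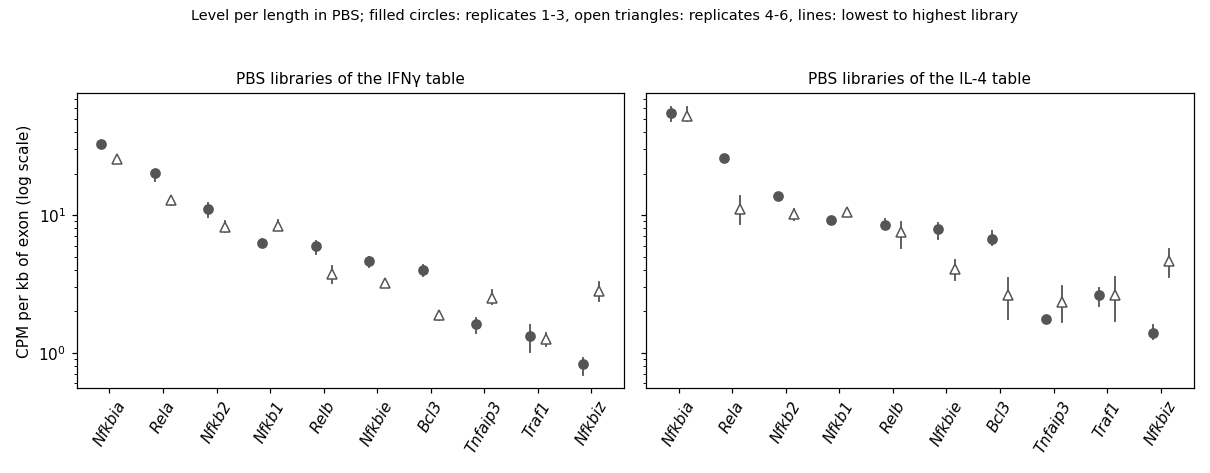
Level per length (CPM per kb of exon, log axis) of the 10 genes in the PBS libraries of the IFNγ table (left) and the IL-4 table (right), with filled circles for the mean of replicates 1–3, open triangles for replicates 4–6 and lines from the lowest to the highest library. Nfkbia was highest in all 4 sets, and Nfkbiz moved from the lowest place in replicates 1–3 (0.829 CPM per kb in the IFNγ table) to 2.8 CPM per kb in replicates 4–6.

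Of the subunits, Nfkb1, Nfkb2 and Rela were not called between any of the IFNγ groups in replicates 1–3, in replicates 4–6 or over all libraries. Nfkb1 (chr3:135584655-135691547 in GRCm38, minus strand), which encodes p105 and p50, was at 72.1, 74.4 and 80.2 CPM in PBS replicates 1–3, at 79.9, 86.9 and 86.5 CPM in SE+IFNγ and at 82.7, 92.3 and 76.7 CPM in PE+IFNγ. Its PBS libraries overlapped with those of both peptide groups. By edgeR's quasi-likelihood test its log2 fold change against PBS was 0.19 (standard error, s.e., 0.074) for each peptide, with adjusted p = 0.0483 for SE and 0.0481 for PE, both under the 1.5-fold that a call required. For SE against PE it was 0 with a 95% interval of -0.16 to 0.16. Rela (chr19:5637483-5648130, plus strand), which encodes the p65 subunit, was at 54.2, 65.4 and 65.8 CPM in PBS, at 67, 64.3 and 63.1 CPM in SE+IFNγ and at 59.7, 55 and 60.2 CPM in PE+IFNγ. Its log2 difference of SE from PE was 0.14 (95% interval -0.03 to 0.31, adjusted p = 0.22), and that of SE from PBS was 0.1 (adjusted p = 0.35). Nfkb2 (chr19:46304320-46312385, plus strand), which encodes p100 and p52, was at 44.4, 52.1 and 56 CPM in PBS, at 56.4, 60.4 and 58.3 CPM in SE+IFNγ and at 49.5, 48.7 and 51.1 CPM in PE+IFNγ. Every SE+IFNγ library thus lay above every PBS and PE+IFNγ library, but the log2 changes were 0.23 (adjusted p = 0.032) and 0.22 (95% interval 0.05 to 0.4, adjusted p = 0.065) and not calls. Levels in replicates 4–6 ran from 79.7 to 131 CPM for Nfkb1, from 28.4 to 41.4 CPM for Nfkb2 and from 31.3 to 44.4 CPM for Rela. There Nfkb1 was lower in the libraries labelled SE+IFNγ than in PE+IFNγ without overlap (79.7 to 85.8 against 106 to 131 CPM, log2 difference -0.5, adjusted p = 0.00122), under 1.5-fold. Exons of Nfkb2 overlap those of Psd and AC114539.1 on the other strand over 830 bases, and since the strand option of the counting was not stated, reads there cannot be told apart.

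Relb was the only one of these subunits to be called with IFNγ, for SE against PBS in replicates 1–3. Relb (chr7:19606217-19629438, minus strand), whose protein pairs with p52 in the non-canonical pathway, was at 20.4, 25.1 and 24.1 CPM in PBS replicates 1–3, at 37.7, 36 and 35.8 CPM in SE+IFNγ and at 25.8, 26.9 and 22.5 CPM in PE+IFNγ. All 3 SE+IFNγ libraries lay above the libraries of both other groups, which overlapped each other. Against PBS it rose by 0.68 on the log2 scale (s.e. 0.089, 1.6-fold, adjusted p = 2.2e-05) with SE and differed by 0.15 (adjusted p = 0.19) with PE. Without replicate 1 the rise was 0.57, under 1.5-fold, with adjusted p = 0.0004. SE against PE gave 0.53 (95% interval 0.34 to 0.72, 1.44-fold, adjusted p = 0.00077), again under the fold of a call. The levels of replicates 4–6 were lower in all groups, at 14.7, 12.5 and 16.6 CPM in PBS, 12.4, 15.2 and 9.03 CPM in the libraries labelled SE+IFNγ and 12.4, 12 and 13.1 CPM in PE+IFNγ, and they overlapped. There SE against PE gave -0.04 (95% interval -0.4 to 0.32, adjusted p = 0.88).

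Nfkbia and Nfkbie, which encode cytoplasmic inhibitors, were below PBS in the libraries with an IFNγ response. Nfkbia (chr12:55489410-55492647, minus strand) was at 49.1, 54 and 55.4 CPM in PBS replicates 1–3, at 35.2, 35.1 and 39.9 CPM in SE+IFNγ and at 27.1, 29.4 and 28.7 CPM in PE+IFNγ. The 3 groups did not overlap, with PBS highest and PE+IFNγ lowest. With PE it fell by 0.86 (s.e. 0.075, adjusted p = 6.8e-07), and with SE the log2 change was -0.5 (s.e. 0.074, adjusted p = 7.6e-05), which is 0.709 of PBS and under the fold of a call. The difference of SE from PE was 0.36 (95% interval 0.2 to 0.52, adjusted p = 0.0038). Replicates 4–6 held 43.3, 41 and 39.3 CPM in PBS, 24, 29.5 and 27 CPM in PE+IFNγ and 42.8, 34.1 and 36.1 CPM in the libraries labelled SE+IFNγ, which had no IFNγ response and overlapped with PBS. There Nfkbia fell by 0.62 with PE (s.e. 0.099, adjusted p = 0.00073), but without replicate 4 the fall was 0.5, under 1.5-fold.

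Nfkbie was below PBS in both SE+IFNγ and PE+IFNγ in replicates 1–3. Nfkbie (chr17:45555703-45563169, plus strand) was at 12.9, 15.2 and 14.6 CPM in PBS replicates 1–3, at 8.14, 6.7 and 7.29 CPM in SE+IFNγ and at 7.33, 8.17 and 8.75 CPM in PE+IFNγ. Both peptide groups lay below PBS and overlapped each other. It fell by 0.92 with SE (s.e. 0.11, adjusted p = 9.5e-06) and by 0.78 with PE (s.e. 0.11, adjusted p = 5.7e-05), and SE differed from PE by -0.14 (95% interval -0.39 to 0.1, adjusted p = 0.38). Values in replicates 4–6 were 9.77, 10.2 and 9.35 CPM in PBS and 5.09, 6.17 and 6.28 CPM in PE+IFNγ, a fall by 0.73 (s.e. 0.13, adjusted p = 0.0015). The libraries labelled SE+IFNγ were between them at 7.82, 8.63 and 6.34 CPM, with a log2 change from PBS of -0.37 (adjusted p = 0.18). Over all libraries the change with SE was -0.66 (adjusted p = 0.0056), but it passed the test in none of the fits that left out 1 of replicates 1, 2 or 3 (adjusted p = 0.057, 0.083 and 0.079).

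IκBζ moved the other way, and of the 10 genes it moved furthest from PBS in both SE+IFNγ and PE+IFNγ in replicates 1–3. Nfkbiz (chr16:55811375-55838899, minus strand) was at 3.47, 4.45 and 4.57 CPM in PBS replicates 1–3, at 19.9, 16.5 and 22.1 CPM in SE+IFNγ and at 9.29, 11.6 and 8.78 CPM in PE+IFNγ. The 3 groups did not overlap and SE+IFNγ was highest. It rose by 2.26 with SE (s.e. 0.15, 4.79-fold, adjusted p = 2e-08) and by 1.29 with PE (s.e. 0.15, 2.44-fold, adjusted p = 9.6e-06). SE was higher than PE by 0.97 (95% interval 0.68 to 1.26, 1.96-fold, adjusted p = 0.00018). PBS replicates 4–6 were at 13.8, 11.9 and 16.5 CPM, the PE+IFNγ libraries at 43.9, 38.3 and 42.5 CPM and the libraries labelled SE+IFNγ at 11.1, 10.9 and 10.2 CPM. The rise with PE was 1.56 (s.e. 0.11, adjusted p = 9.2e-07), while the libraries labelled SE+IFNγ lay below every PBS library, with a log2 change of -0.4 (adjusted p = 0.11). SE against PE was therefore -1.95 (95% interval -2.21 to -1.69, adjusted p = 1.7e-07), the opposite sign to replicates 1–3. The 2 sets differed in this contrast by -2.94 (s.e. 0.19, adjusted p = 4.8e-10), and over all 12 SE+IFNγ and PE+IFNγ libraries it was -0.3 (95% interval -1.16 to 0.56, adjusted p = 0.7).

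Bcl3, the other nuclear relative of IκB, changed less. Bcl3 (chr7:19808462-19822770, minus strand) was at 8.95, 10.8 and 9.67 CPM in PBS replicates 1–3, at 13.2, 12.6 and 13.2 CPM in SE+IFNγ and at 11.1, 9.88 and 11.6 CPM in PE+IFNγ. SE+IFNγ was above both other groups, with a log2 change of 0.43 from PBS (s.e. 0.1, adjusted p = 0.0026) and of 0.25 from PE (95% interval 0.04 to 0.46, adjusted p = 0.085), neither of them a call. It was under 5 CPM in every library of replicates 4–6, at 4.73, 4.27 and 4.95 CPM in PBS, 3.24, 4.04 and 3.36 CPM in the libraries labelled SE+IFNγ and 2.88, 3.2 and 4.24 CPM in PE+IFNγ. Exons of Bcl3 overlap those of Gm16175 on the other strand over 161 bases.

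Tnfaip3 showed the widest gap between the peptides in replicates 1–3. Tnfaip3 (chr10:19000910-19015657, minus strand), which encodes A20, was at 10.1, 12.2 and 13 CPM in PBS, at 17.4, 12.7 and 16.5 CPM in SE+IFNγ and at 6.04, 7.38 and 5.64 CPM in PE+IFNγ. PE+IFNγ lay below both other groups, and 1 SE+IFNγ library lay within the range of PBS. It fell by 0.85 with PE (s.e. 0.14, adjusted p = 0.00026), and with SE the log2 change was 0.43 (s.e. 0.13, adjusted p = 0.017), under 1.5-fold. SE was higher than PE by 1.28 (95% interval 0.98 to 1.58, 2.43-fold, adjusted p = 3.3e-05), and 1.51% of all tested genes had a change at least as large in this contrast. In replicates 4–6 PBS was at 16.4, 17.1 and 20.6 CPM, the libraries labelled SE+IFNγ at 12.8, 10.6 and 11 CPM and PE+IFNγ at 10.7, 10.4 and 11.8 CPM. Both peptide groups were below PBS, by 0.65 (s.e. 0.12, adjusted p = 0.029) for the libraries labelled SE+IFNγ and by 0.71 (s.e. 0.11, adjusted p = 0.00066) for PE. Without PBS replicate 6 alone, the library with high Lcn2, the first of these was -0.54 with adjusted p = 0.047 and no longer past 1.5-fold, and without replicate 5 or 6 of all groups it was -0.64 and -0.51 (adjusted p = 0.245 and 0.19). SE against PE gave 0.06 (95% interval -0.2 to 0.32, adjusted p = 0.73) in replicates 4–6. Over all libraries it was 0.71 (adjusted p = 0.023), and the groups overlapped. That call was lost in each fit without replicate 1, 2 or 3 (0.52, 0.69 and 0.54, adjusted p = 0.0914, 0.0765 and 0.11).

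Traf1 was also higher with SE than with PE in replicates 1–3. Traf1 (chr2:34941750-34961772, minus strand) was at 8.87, 12.2 and 14.1 CPM in PBS, at 22.1, 17.2 and 20 CPM in SE+IFNγ and at 11.5, 9.61 and 9.97 CPM in PE+IFNγ. All SE+IFNγ libraries were above those of the other groups, which overlapped. It rose by 0.78 with SE against PBS (s.e. 0.15, adjusted p = 0.00053), and without replicate 1 this was 0.53 and under 1.5-fold. SE was higher than PE by 0.92 (95% interval 0.6 to 1.24, 1.89-fold, adjusted p = 0.00061). The order of the groups changed in replicates 4–6, with PBS at 9.91, 10.9 and 12.2 CPM, the libraries labelled SE+IFNγ at 9.01, 5.86 and 6.51 CPM and PE+IFNγ at 6.14, 5.52 and 6.53 CPM. It fell by 0.86 with PE (s.e. 0.15, adjusted p = 0.00145), and SE against PE was 0.24 (95% interval -0.11 to 0.58, adjusted p = 0.3). The study singled out Relb, Tnfaip3 and Traf1 from these libraries as raised by SE, so their direction here is not independent evidence. It pooled its replicates, and over all libraries here none of them was called for SE against PBS.

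**Figure D3:**
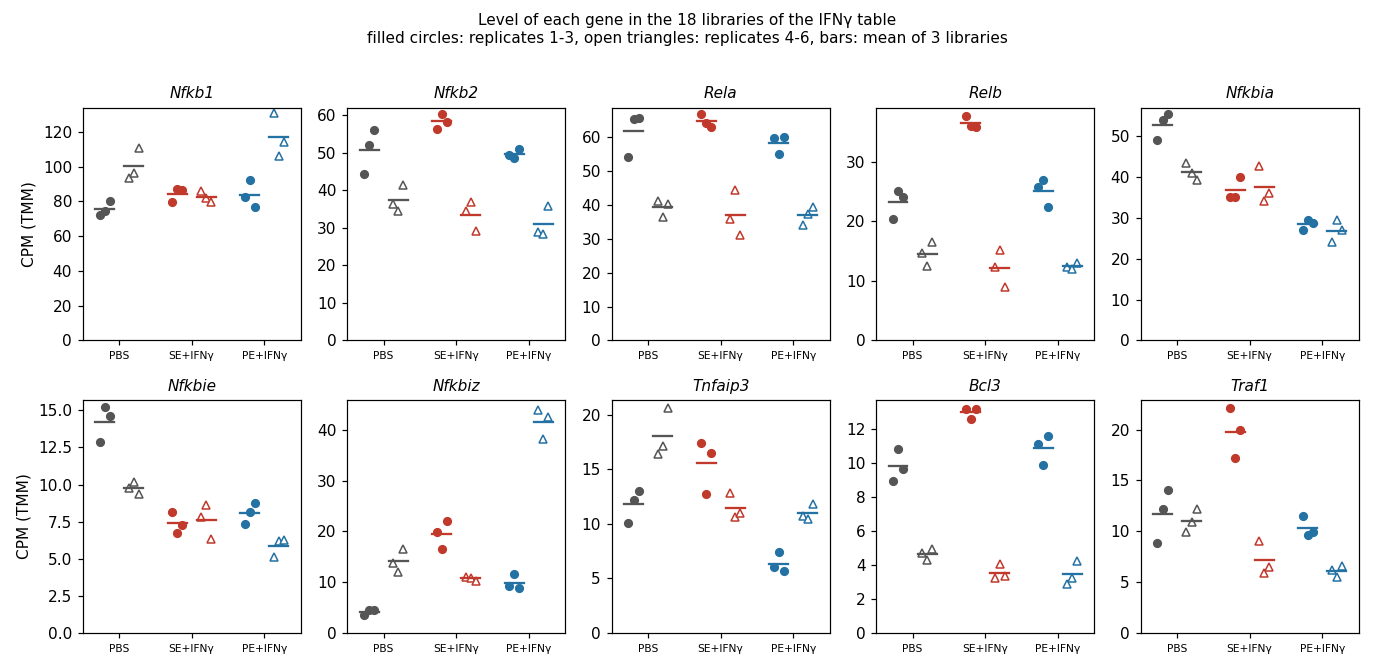
Level (CPM, TMM normalized, linear axes from 0) of the 10 genes in each of the 18 libraries of the IFNγ table, with filled circles for replicates 1–3, open triangles for replicates 4–6 and bars at the mean of 3 libraries. SE+IFNγ replicates 1–3 were above PE+IFNγ for Tnfaip3 (12.7 to 17.4 against 5.64 to 7.38 CPM), Traf1 and Nfkbiz, while Nfkbia and Nfkbie were below PBS in PE+IFNγ of both sets.

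Counted over the 10 genes, 4 were called for SE+IFNγ against PBS in replicates 1–3 (Relb, Nfkbiz and Traf1 higher, Nfkbie lower), beside 22.8% of all 15343 genes tested. For PE+IFNγ against PBS 4 were called (Nfkbiz higher, Nfkbia, Nfkbie and Tnfaip3 lower), beside 19.8% of all genes. SE against PE gave 3 calls, all higher with SE (Nfkbiz, Tnfaip3 and Traf1), beside 6.08% of all genes in either direction and 4.48% higher. The median log2 difference of SE from PE over the 10 genes was 0.3, against -0.01 over all genes. SE+IFNγ and PE+IFNγ libraries did not overlap for 8 of the 10, beside 44.2% of all genes, and in all 8 SE was above PE. All 3 calls held in each fit without 1 replicate number. Of the 10 genes in replicates 4–6, 1 was called for the libraries labelled SE+IFNγ against PBS (Tnfaip3, lower), beside 0.72% of 15563 genes, and 5 for PE+IFNγ (Nfkbiz higher, Nfkbia, Nfkbie, Tnfaip3 and Traf1 lower), beside 10.8%. SE against PE gave 1 call (Nfkbiz, lower with SE), beside 13.8% of all genes. With all 18 libraries and a term for the set, the counts were 1 of 10 for SE (Nfkbie, 3.57% of 15949 genes), 4 for PE (Nfkbia, Nfkbie, Nfkbiz and Tnfaip3, 13%) and 1 for SE against PE (Tnfaip3, 3.19%). These contrasts share their PBS libraries, or share the peptide libraries, and are not independent of each other.

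The change from PBS to SE+IFNγ differed between the label sets for 8 of the 10 genes at an adjusted p under 0.05, beside 35.7% of 16845 genes. Nfkb2 and Rela were the other two. The largest of these differences were those of Nfkbiz (-2.63, s.e. 0.2, adjusted p = 5e-09), Traf1 (-1.39, s.e. 0.23, adjusted p = 7.4e-05) and Tnfaip3 (-1.06, s.e. 0.19, adjusted p = 2e-04), all lower in replicates 4–6. For PE+IFNγ against PBS none of the 10 passed, beside 11.5% of all genes, with 3 at an unadjusted p under 0.05. The edgeR differences of the 10 ran from -0.68 to 0.3. DESeq2 called 2, Bcl3 (-0.58, adjusted p = 0.0194) and Traf1 (-0.7, adjusted p = 0.0238), both lower in replicates 4–6. The interval of the difference for Nfkbiz, Nfkbie and Tnfaip3 under PE ran from -0.11 to 0.72, from -0.27 to 0.44 and from -0.23 to 0.58. SE against PE differed between the sets for 6 of the 10, beside 28.8% of all genes. The missing IFNγ response of the libraries labelled SE+IFNγ replicates 4–6 moved with these differences, and its part in them was not tested.

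**Figure D4:**
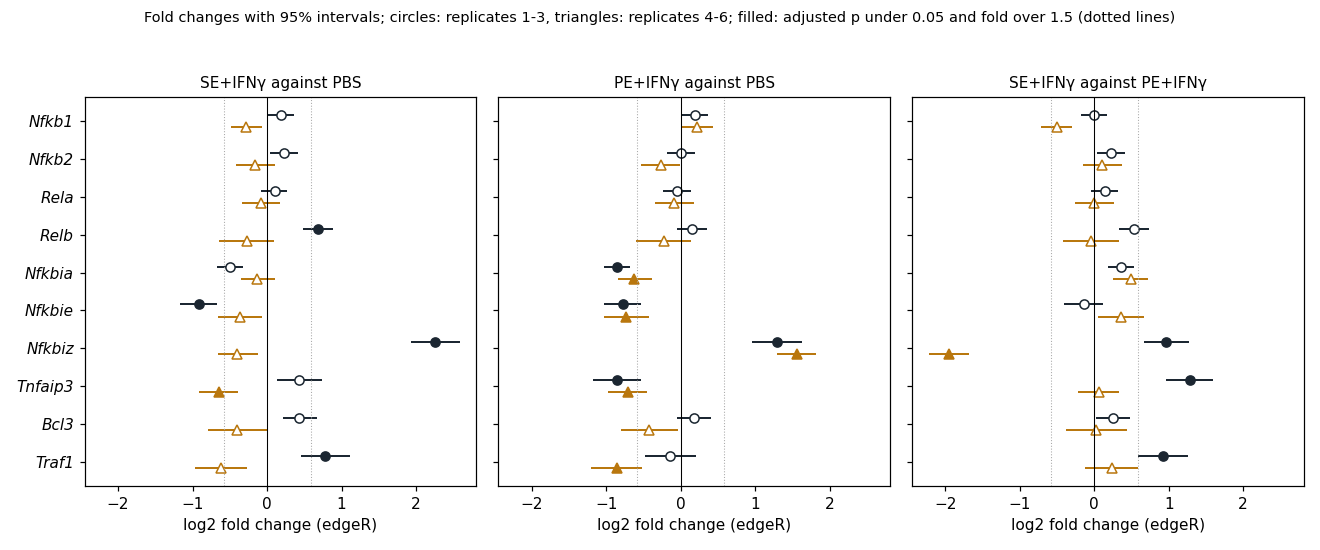
Log2 fold change (edgeR) of the 10 genes for SE+IFNγ against PBS, PE+IFNγ against PBS and SE+IFNγ against PE+IFNγ, with 95% intervals, circles for replicates 1–3 and triangles for replicates 4–6. Filled symbols passed an adjusted p under 0.05 and a fold over 1.5 (dotted lines). For PE the change of Nfkbiz was 1.29 and 1.56 in the 2 sets, while for SE the sets lay on opposite sides of 0 for Nfkbiz (2.26 and -0.4).

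With IL-4, an inducer of the alternative state of macrophages, at most 2 of the 10 members were called in a contrast of the main fits, which held no replicate block. Response genes of IL-4 fitted the labels in both sets, with Mgl2, a lectin that IL-4 induces, at 22.2 to 77.6 CPM in the 12 peptide libraries and at 0 to 0.37 CPM in PBS. Nfkbiz was at 7.98, 6.74 and 6.32 CPM in PBS replicates 1–3, at 2.95, 3.33 and 3.5 CPM in SE+IL-4 and at 3.1, 3.74 and 4.26 CPM in PE+IL-4. Both peptide groups lay below PBS and overlapped. It fell by 1.06 with SE (s.e. 0.18, adjusted p = 0.0062) and by 0.88 with PE (s.e. 0.18, adjusted p = 0.015). It was the 1 member called of 10 in each contrast, beside 6.44% and 3.95% of 12350 genes. Both calls were lost without replicate 2 (adjusted p = 0.21 and 0.19) or without replicate 3 (0.11 and 0.14), with log2 changes of -1.1, -0.91, -1.18 and -1.06. In replicates 4–6 Nfkbiz was at 28.5, 23.4 and 17.8 CPM in PBS, 27.1, 17.1 and 15.2 CPM in SE+IL-4 and 16.1, 13.1 and 13.3 CPM in PE+IL-4. The log2 changes were -0.23 (adjusted p = 0.6) and -0.71 (adjusted p = 0.14). Nfkbiz with PE was a call with no count filter (-0.69, adjusted p = 0.0236) and with a replicate block (-0.7, adjusted p = 0.0158) in edgeR. Over all libraries it fell by 0.61 with SE (adjusted p = 0.037) and by 0.82 with PE (adjusted p = 0.0046). Without SE+IL-4 replicate 4 alone the fall with SE over all libraries was 0.81 (adjusted p = 0.0011), while without replicate 1, 2, 3 or 5 of all groups the change was -0.46, -0.55, -0.58 and -0.63 and not a call (adjusted p = 0.135, 0.171, 0.119 and 0.102).

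Bcl3 was the other member that met both thresholds with IL-4 in the main fits. It was at 16, 19.1 and 15 CPM in PBS replicates 1–3 and at 13.4, 16.4 and 15 CPM in PE+IL-4, which overlapped, with a log2 change of -0.11 (adjusted p = 0.66). In replicates 4–6 it was at 4.35, 6.53 and 8.58 CPM in PBS, at 4.19, 3.4 and 4.46 CPM in SE+IL-4 and at 2.57, 2.42 and 2.65 CPM in PE+IL-4. PE+IL-4 was below PBS in every library and fell by 1.36 (s.e. 0.24, adjusted p = 0.018), the 1 call of 10 beside 2.24% of 13472 genes. It was not called without replicate 5 (-1.32, adjusted p = 0.56) or without replicate 6 (-1.11, adjusted p = 0.14). Rela was at 26.6, 32.7 and 42.2 CPM in PBS replicates 4–6, at 22.4, 21.9 and 27.1 CPM in SE+IL-4 and at 18.5, 20.9 and 23.4 CPM in PE+IL-4. Every PE+IL-4 library was below every PBS library, with a log2 change of -0.7 (s.e. 0.17, 0.616-fold, adjusted p = 0.0639). That value was a call with DESeq2 (adjusted p = 0.00743), with no count filter (adjusted p = 0.0096) and without replicate 4 (-0.76, adjusted p = 0.0427). It was also a call with a replicate block in edgeR (-0.68, adjusted p = 0.00788). Over all libraries the change of Rela with PE was -0.43 (0.74-fold, adjusted p = 0.0165), under the fold of a call, and without replicate 5 it was -0.35 (adjusted p = 0.141). SE+IL-4 against PBS gave no call among the 10 in replicates 4–6, beside 1.05% of all genes, with 3 members at an unadjusted p under 0.05. DESeq2 called 1 (Tnfaip3), which was also called with a replicate block in edgeR (0.86, adjusted p = 0.0319). With all libraries 1 of 10 was called for SE (Nfkbiz, beside 3.1% of 13494 genes) and 2 for PE (Nfkbiz and Bcl3, beside 4.35%). The change of Bcl3 with PE over all libraries was -0.69 (adjusted p = 0.0225), and it was not called without replicate 4, 5 or 6 (-0.6, -0.52 and -0.49, adjusted p = 0.0645, 0.162 and 0.0795). Without a replicate block, no member passed the edgeR test of a difference between the sets in any IL-4 contrast. Of 14183 genes 4.39% passed for SE, 0.00705% for PE and 0% for SE against PE. At an unadjusted p under 0.05 there were 4, 2 and 2 members, and DESeq2 called 2 (Nfkbiz and Tnfaip3), 1 (Bcl3) and 0. With the block, Rela, Nfkbiz, Tnfaip3 and Bcl3 passed for SE and Bcl3 for PE.

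Tnfaip3, Traf1 and Relb in the IL-4 table were marked by 1 library. Tnfaip3 was at 21.9, 16.1 and 12.2 CPM in PBS replicates 4–6, at 47.1, 23.4 and 23.1 CPM in SE+IL-4 and at 21.4, 17.9 and 18.9 CPM in PE+IL-4. Traf1 was at 40.6, 18.9 and 16.8 CPM and Relb at 46.1, 23.5 and 24.6 CPM in the same SE+IL-4 libraries. Replicate 4 was thus more than 1.5 times the next library for each of these and for Nfkbiz, 4 of the 10 members. Tnfaip3 had a log2 change of 0.9 from PBS (adjusted p = 0.16) with replicate 4 of SE+IL-4 and of 0.48 (adjusted p = 0.36) without it. For Traf1 the change was 0.13 with it and -0.37 without it, and for Relb 0.1 and -0.28, none of them past the test. In replicates 1–3 SE+IL-4 and PE+IL-4 overlapped for Tnfaip3 (9.25 to 11.9 and 10.5 to 12.8 CPM) and Traf1 (12.9 to 23 and 14.5 to 26.6 CPM), while Relb was higher in every SE+IL-4 library than in any PE+IL-4 library (29.1 to 32.6 and 25.5 to 28.6 CPM).

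No member was called between SE+IL-4 and PE+IL-4 in replicates 1–3, in replicates 4–6 or over all libraries, beside 0%, 0% and 0.00741% of all genes. At an unadjusted p under 0.05 there were 0, 4 and 3 members, and DESeq2 also called none. In replicates 1–3 the log2 difference of SE from PE was -0.1 (95% interval -0.38 to 0.19) for Tnfaip3, -0.18 (-0.75 to 0.38) for Traf1, -0.18 (-0.59 to 0.22) for Nfkbiz and 0.16 (-0.05 to 0.38) for Relb. In replicates 4–6 all 10 differences were above 0, from 0.05 to 0.69, with a median of 0.36 against 0 over all genes. The groups did not overlap there for 5 of the 10 (Nfkb1, Nfkb2, Nfkbia, Tnfaip3 and Bcl3, all higher with SE), beside 17.4% of all genes. The widest were those of Tnfaip3 (0.69, 95% interval 0.05 to 1.32) and Bcl3 (0.66, 95% interval 0.12 to 1.2), and Nfkb1 gave 0.33 (95% interval 0.12 to 0.54). Without SE+IL-4 replicate 4 alone 8 were above 0 and 2 below it (Nfkbie and Traf1), from -0.18 to 0.62, with Tnfaip3 at 0.26. Set against IFNγ in 1 model of the 12 peptide libraries of replicates 1–3, the difference of SE from PE was larger with IFNγ for Tnfaip3 by 1.34 (s.e. 0.2, adjusted p = 0.0021) and for Nfkbiz by 1.12 (s.e. 0.22, adjusted p = 0.0092). These were 2 of the 10 members, beside 7.09% of 15204 genes. Traf1 gave 1.07 (s.e. 0.32, adjusted p = 0.059). Both calls were lost without replicate 3 (1.36 and 0.89, adjusted p = 0.099 and 0.24). With replicates 4–6 added, whose SE+IFNγ libraries had no IFNγ response, no member passed, beside 7.07% of 15916 genes, with 2 members at an unadjusted p under 0.05 and 2 called by DESeq2 (Nfkb1 and Nfkbia).

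**Figure D5:**
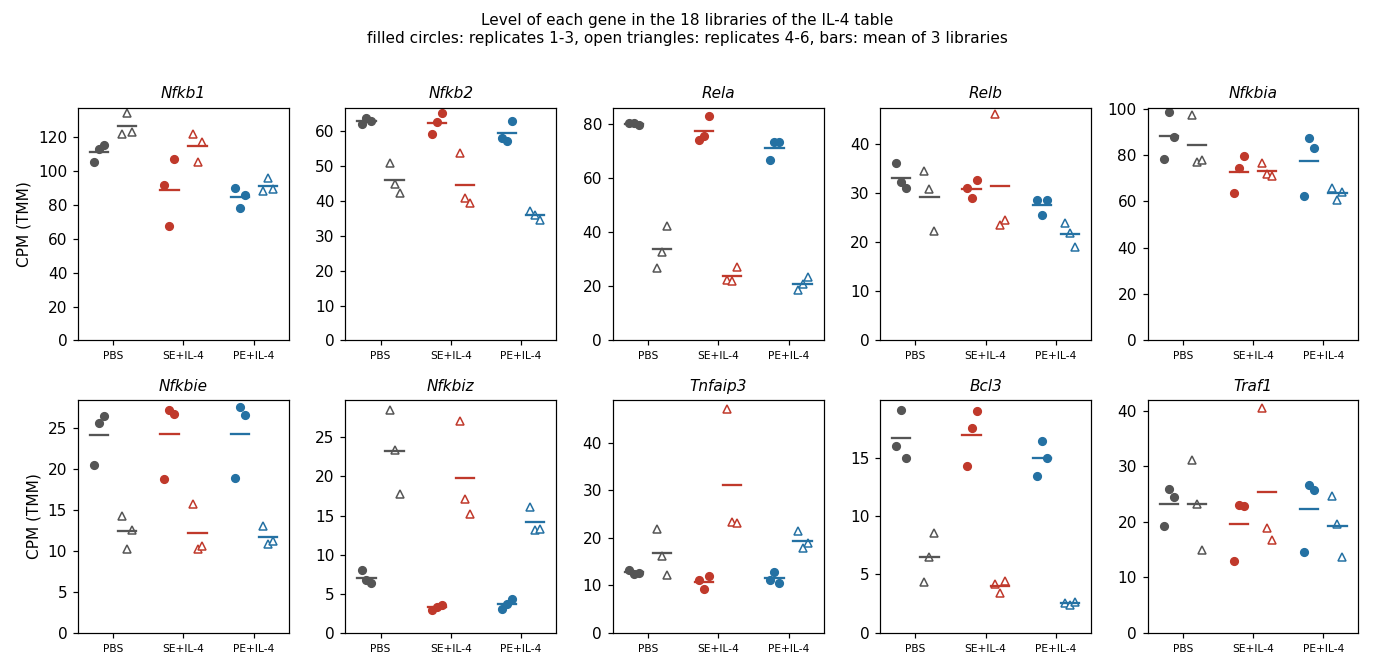
Level (CPM, TMM normalized, linear axes from 0) of the 10 genes in each of the 18 libraries of the IL-4 table, with filled circles for replicates 1–3, open triangles for replicates 4–6 and bars at the mean of 3 libraries. SE+IL-4 and PE+IL-4 did not overlap for 5 of the 10 genes in replicates 4–6, Nfkbiz of replicates 1–3 was at 2.95 to 4.26 CPM with either peptide and 6.32 to 7.98 CPM in PBS, and SE+IL-4 replicate 4 stood above its group for Tnfaip3, Traf1 and Relb.

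The remaining genes of the pathway were taken as 80 genes in 6 lists, of which 72 to 77 passed the filter. Among the other subunit and inhibitors, Rel (c-Rel) was not called in any contrast, but it passed the adjusted p under 1.5-fold in some. With IFNγ these were SE against PE (0.48, adjusted p = 0.0196) and PE against PBS (-0.38, adjusted p = 0.0316) in replicates 1–3. In replicates 4–6 they were PE+IFNγ (0.32, adjusted p = 0.0274), SE+IL-4 (0.57, adjusted p = 0.0229) and PE+IL-4 (0.49, adjusted p = 0.029) against PBS. Nfkbid, which encodes the nuclear inhibitor IκBNS, fell by 1.02 with SE (s.e. 0.11, adjusted p = 5.1e-06) and by 0.89 with PE (s.e. 0.11, adjusted p = 2.3e-05) in replicates 1–3 of the IFNγ table. Nfkbib, which encodes IκBβ, went the other way to Nfkbia and Nfkbie and rose by 0.82 with SE (s.e. 0.12, adjusted p = 8.9e-05) and by 0.88 with PE (s.e. 0.12, adjusted p = 6e-05). Its difference of SE from PE in replicates 4–6 was -0.83 (adjusted p = 0.00124). It is outside the rule for named genes and was chosen after its values were seen, and its exons overlap those of Sirt2 and Ccer2 on the other strand over 356 bases. In replicates 1–3 with IFNγ, none of the 11 kinases was called with SE, and 1 rose and 2 fell with PE. Of the 13 negative regulators 2 rose and 1 fell with SE and 1 fell with PE, where 22.8% and 19.8% of all genes were called. Of the 18 adaptors, beside the same shares, 3 rose and 1 fell with SE, and 3 rose and 2 fell with PE. Of the 8 receptors 2 rose and 1 fell with SE, and 2 rose and none fell with PE. Tirap, an adaptor of Toll-like receptor signalling, fell in these replicates by 1.09 with SE (adjusted p = 1.2e-05) and by 1.04 with PE (adjusted p = 2.6e-05). Tlr2, the receptor of bacterial lipopeptides, fell there by 0.97 with SE (adjusted p = 5.1e-08), and Tnip3, a partner of A20, fell by 1.02 with PE (adjusted p = 8.2e-07). In replicates 4–6 with IFNγ no kinase or negative regulator was called against PBS with either label. No adaptor or receptor was called lower there. With PE 1 of 18 adaptors and 2 of 8 receptors were called higher, and none with the SE label. Of all genes 0.72% (SE) and 10.8% (PE) were called.

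NF-κB targets made up most of the calls in the 6 lists. In replicates 1–3, 17 of 24 tested targets rose with SE+IFNγ and none fell, beside 22.8% of all genes called in either direction, with a median log2 change of 2.03 against -0.01 over all genes, and with PE+IFNγ 15 rose and 1 fell, beside 19.8%, with a median of 1.05 against 0. Many of these targets also respond to IFNγ itself. Ccl5, a T cell chemokine, was at 1.03 ± 0.138 CPM (SD, n = 3) in PBS, 54.5 ± 5.34 in SE+IFNγ and 9.67 ± 0.294 in PE+IFNγ. Ptgs2, which encodes cyclooxygenase 2, was at 3.09 ± 0.752, 104 ± 16.4 and 35.7 ± 9.5 CPM, and Nos2, the inducible nitric oxide synthase, at 14.7 ± 8.37, 277 ± 23.4 and 162 ± 12.1 CPM. Between the peptides 10 of 24 targets were higher and 1 lower with SE, beside 6.08% of all genes, with a median of 0.52. The highest were Ccl5 (2.48, s.e. 0.087, adjusted p = 2.8e-09), Gadd45b, a stress response gene (1.64, s.e. 0.082, adjusted p = 9.3e-08), and Ptgs2 (1.54, s.e. 0.16, adjusted p = 2.1e-05), and the 1 that was lower was Irf1 (-0.65, s.e. 0.076, adjusted p = 5.8e-05). In replicates 4–6, 6 of 23 tested targets rose and 1 fell with PE+IFNγ against PBS, beside 10.8% of all genes. Their median log2 change was 0.11, against 0 over all genes. The libraries labelled SE+IFNγ had no IFNγ response in these replicates. There 0 of 23 targets were higher and 13 lower with SE than with PE, beside 13.8% of all genes, with a median of -0.8. Against PBS 7 of 23 were lower in the libraries labelled SE+IFNγ and none higher, beside 0.72% of all genes. Among them were Nos2 (-2.55, adjusted p = 0.048), Ptgs2 (-1.69, adjusted p = 0.048) and Cxcl2, a neutrophil chemokine (-1.63, adjusted p = 0.038). In PBS these genes varied widely, with Nos2 at 5.22, 8.14 and 25.9 CPM, the last of them in replicate 6. These 3 calls were lost without replicate 5 of all groups (adjusted p = 0.248, 0.248 and 0.245), and that of Nos2 also without replicate 6 (-1.28, adjusted p = 0.102).

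With IL-4 in replicates 1–3, 2 of 21 tested targets rose and 4 fell with SE, beside 6.44% of all genes called, and 1 rose and 3 fell with PE, beside 3.95%. Gadd45b rose by 1.18 with SE (adjusted p = 0.0035) and by 1.25 with PE (adjusted p = 0.0026). Tnf, the cytokine that activates the pathway through its receptors, fell by 1.08 with SE (adjusted p = 0.026) and by 1.06 with PE (adjusted p = 0.041), and Cxcl2 fell by 1.67 and by 1.46. Without replicate 2 or replicate 3 of all groups neither Tnf nor Cxcl2 was called with either peptide (adjusted p = 0.266 and 0.212 for Tnf and 0.253 and 0.109 for Cxcl2 with SE, and 0.176 and 0.341 for Tnf and 0.173 and 0.143 for Cxcl2 with PE). Gadd45b was not called without replicate 3 (adjusted p = 0.101 with SE and 0.077 with PE), nor with SE without replicate 2 (0.0866). Tlr2 fell in all 4 contrasts with PBS, by 1.29 and 1.14 in replicates 1–3 and by 1 and 0.88 in replicates 4–6, with adjusted p from 0.00082 to 0.013, and each of these 4 calls was lost without either of 2 replicate numbers, which were 2 and 3 in the first set and 5 and 6 in the second (adjusted p = 0.0653 and 0.0566 with SE and 0.0717 and 0.0693 with PE in the first, 0.368 and 0.0783 with SE and 0.402 and 0.0948 with PE in the second). Ripk2, the kinase of NOD receptor signalling, and Tnip3 rose with PE in replicates 1–3 (0.59 and 0.79), and Map3k14, the kinase NIK of the non-canonical pathway, fell with PE in replicates 4–6 (-0.64, adjusted p = 0.03). Ripk2 was not called without replicate 1, 2 or 3, Tnip3 without replicate 3, or Map3k14 without replicate 4, 5 or 6. Between SE+IL-4 and PE+IL-4 none of the 80 genes was called in either set.

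The genes whose levels ran most like each member over the 18 libraries of the IFNγ table, after each label set was centred, were ranked by Pearson's r of log2 CPM among 9091 other genes at 10 CPM or more. These values share their libraries and the groups' response to IFNγ and are a description only. For Nfkbiz they were Ifi204 (0.987), Acod1 (0.98) and Ifi211 (0.977), 2 interferon-inducible genes and the enzyme that makes itaconate. For Nfkbia they were Bnip3l (0.962), Wsb2 (0.955) and Npepps (0.952), and for Nfkbie P4hb, Wbp1l and Arhgef7 (0.947 each). Traf1 was closest to Afg3l2 (0.928), Vegfa (0.888) and Bhlhe40 (0.873), and Tnfaip3 to Gm5454 (0.917), Syne1 (0.915) and Gphn (0.91). For Nfkb1 the nearest was Lpxn (0.922), for Relb Tjap1 (0.912), for Rela Rfx1 (0.895), for Nfkb2 Mark4 (0.863) and for Bcl3 Mark4 (0.86), and Nfkb2, Rela and Bcl3 all had Fam129b among their 3 (0.853, 0.845 and 0.844). Within the members the highest r was 0.84, reached by Nfkbia with Nfkbie and by Tnfaip3 with Traf1, and the lowest was -0.8 between Nfkbie and Nfkbiz.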

How the data were processed

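RNA-seq libraries of RAW264.7 cells were counted by the authors. The deposited tables hold raw counts of uniquely aligned reads per gene, made with featureCounts on GRCm38.p5 with GENCODE genes. No aligner or strand setting is given in the sources used here, and the labels and the study's methods name different library kits. Genes were filtered with filterByExpr, libraries were scaled by TMM, and groups were compared in edgeR 4.0.16 (quasi-likelihood fits, R 4.3.3), with Benjamini-Hochberg adjustment over all genes. A call needed an adjusted p under 0.05 and a fold over 1.5. Replicates 1–3, replicates 4–6 and all libraries (with a label set term) were fitted separately, and differences between sets and between cytokines were interactions judged by the adjusted p alone. Levels per length and coordinates used GENCODE M21. The fits of the IFNγ table were tested on counts simulated from their own fitted spread, with changes put into SE libraries only. The fits of the IL-4 table, those between cytokines and changes near 1.5-fold were not tested in this way. Alternatives were DESeq2 1.42.0, RLE size factors, 2 other count filters, a replicate block, no histone, Rn7s and mitochondrial genes, no label set term and each replicate number left out.

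The members, lists and tests were chosen with earlier results of these data known. All members are named. A pathway gene could be named if it was called, averaged at least 5 CPM and was among the 3 that rose or the 3 that fell most in a contrast. For likeness, the 3 genes with the highest r were named. The study's figure legends describe biological replicates from 2 experiments in 1 cell line, and p-values measure the spread between these samples. In a fit of 1 label set alone this is the spread between 3 libraries a group. Where the label sets are these 2 experiments, it is a spread within 1 experiment. All 90 pairs of libraries within a group differed by more than sampling noise, with a chi-square per gene of at least 5.23.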

Additional observations from a re-analysis of the deposited data

Results flagged for a closer look

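Over 60 sets of 6 libraries (10 genes in 6 groups), 2 had a library far from the others, where chance gives about 1 in 20. Both were in SE+IL-4 replicate 4, where Tnfaip3 was at 47.1 CPM with the next library at 23.4 CPM, and Traf1 was at 40.6 CPM with the next at 23 CPM. In the same library Csf1r, a receptor that marks macrophages, was at 319 CPM against 670 and 705 CPM in replicates 5 and 6, and Nos2 was at 55.9 CPM against 11.2 and 9.76 CPM. The part of these genes in the members' values was not tested.

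The label sets differed (replicates 4–6 minus 1–3, log2, edgeR interaction) in 8 members for SE+IFNγ against PBS. These were Nfkb1 (-0.44, adjusted p = 0.00765), Relb (-0.94, adjusted p = 0.000698), Nfkbia (0.39, adjusted p = 0.0199), Nfkbie (0.57, adjusted p = 0.0127), Nfkbiz (-2.63), Tnfaip3 (-1.06), Bcl3 (-0.81, adjusted p = 0.00175) and Traf1 (-1.39). Nfkbia lost this call without replicate 2, 4 or 6 (adjusted p = 0.107, 0.0928 and 0.123) and Nfkbie without replicate 2, 3, 4 or 5 (adjusted p = 0.0987, 0.0529, 0.0572 and 0.0858). For SE+IFNγ against PE+IFNγ the sets differed in Nfkb1 (-0.52, adjusted p = 0.00344), Relb (-0.6, adjusted p = 0.0259), Nfkbie (0.49, adjusted p = 0.0449), Nfkbiz (-2.94), Tnfaip3 (-1.23, adjusted p = 8.97e-05) and Traf1 (-0.7, adjusted p = 0.0287). Here Relb was lost without replicate 1, 3, 4 or 6 (adjusted p = 0.0634, 0.114, 0.0574 and 0.13), Nfkbie without 2, 3, 4 or 5 (0.164, 0.185, 0.186 and 0.124) and Traf1 without 2, 3, 5 or 6 (0.0505, 0.0819, 0.0893 and 0.146). All these values involve the libraries labelled SE+IFNγ replicates 4–6, in which the 14 IFNγ response genes were at the level of PBS.

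The difference of SE from PE was larger with IFNγ than with IL-4 in replicates 1–3 for Tnfaip3 (1.34, adjusted p = 0.00205) and Nfkbiz (1.12, adjusted p = 0.00916). Neither passed without replicate 3 (1.36 and 0.89, adjusted p = 0.0992 and 0.237).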

How the results depend on the processing

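Of 2710 values of single members under alternatives, 2597 kept their side of the threshold, 55 lost a call, 58 gained one, and 0 that were called in either fit reversed. Values that passed in neither fit could change sign, as Relb did for SE+IFNγ against PE+IFNγ in replicates 4–6 (-0.25 to 0.19). Of 271 counts of called members, 66 moved by more than 1.5 times, and of 271 counts over all genes 84 did. The cause of these moves was not tested. For SE+IFNγ against PE+IFNγ in replicates 1–3 the count was 3 under each alternative run.

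For SE+IFNγ against PBS in replicates 4–6 the count of 1 became 2 with DESeq2 and 2 with no count filter (Tnfaip3 joined by Traf1), and 0 without PBS replicate 6 alone, an alternative chosen after seeing the data. Over all genes this contrast had 112 calls, against 318 with DESeq2, 519 with no filter and 275 with the block. With all libraries, SE+IFNγ against PBS went from 1 to 2 with DESeq2, 2 with no filter and 0 with no label set term, and SE+IFNγ against PE+IFNγ from 1 to 2 with DESeq2, 2 with no filter, 2 with at least 10 counts in every library and 0 with no label set term. Over all genes, leaving out the label set term took these 2 contrasts from 569 to 25 and from 509 to 83 calls, and PE+IFNγ against PBS from 2076 to 893. The set difference of PE+IFNγ went from 0 to 1 with RLE size factors, 2 with DESeq2 and 1 with no filter. With IL-4 in replicates 4–6, SE against PBS went from 0 to 1 with DESeq2 and 1 with no filter, and PE against PBS from 1 to 2 and 3. With all IL-4 libraries and no label set term the counts fell from 1 (SE) and 2 (PE) to 0 and 0. Set differences with IL-4 went from 0 to 2 (SE) and 1 (PE) with DESeq2, and to 2 and 1 with no filter. The difference between cytokines went from 2 to 4 with no filter in replicates 1–3, and from 0 to 2 with DESeq2 and 3 with no filter over all libraries.

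No label says that a replicate number marks a shared batch, and not every same-numbered pair correlated over 0.1, so the numbers were not treated as pairs. The column letters of replicates 1–3 do run on by replicate number (A, G and H, then I, O and P, then Q, W and X). The numbered HLA columns of replicates 4–6 with IFNγ run the same way. The correlation of same-numbered deviations ran from -0.39 to 0.29 and from -0.28 to 0.29 with IFNγ (replicates 1–3 and 4–6), with 2 and 3 of 9 pairs over 0.1, and 0 and 4 of 9 samples correlated best with their own number. With IL-4 it ran from 0.09 to 0.65 and from -0.1 to 0.75, with 8 and 6 of 9 pairs over 0.1. There 6 and 7 of 9 samples correlated best with their own number, which is a hint of pairing in the data. Mitochondrial genes took 7.8%, 8.39% and 8.52% of counts in replicate 6 of the 3 IL-4 table groups, against 2.12% to 3.73% in replicates 4 and 5. With the replicate block, SE+IFNγ against PE+IFNγ over all libraries gave 0 (Tnfaip3 at 0.71, adjusted p = 0.0696 in edgeR), SE+IL-4 and PE+IL-4 against PBS in replicates 4–6 gave 1 (Tnfaip3) and 3 (Bcl3, Rela and Nfkbiz), and the difference between cytokines in replicates 1–3 gave 4 (with Nfkbia and Traf1). The set differences became 4 for SE+IL-4 (Rela, Nfkbiz, Tnfaip3 and Bcl3, adjusted p = 0.0226, 0.0156, 0.00757 and 0.0475) and 1 for PE+IL-4 (Bcl3, adjusted p = 0.0333).

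With each replicate number left out in turn, the counts ran from 2 to 4 (SE+IFNγ) and 4 to 4 (PE+IFNγ) against PBS in replicates 1–3, from 0 to 2, 4 to 5 and 1 to 2 (SE against PE) in replicates 4–6, and from 0 to 2, 4 to 5 and 0 to 2 with all libraries. The set differences ran from 6 to 9 (SE), 0 to 1 (PE) and 3 to 5 (SE against PE). With IL-4 the counts of SE and PE against PBS ran from 0 to 1 and 0 to 1 in replicates 1–3, 0 to 0 and 0 to 2 in replicates 4–6, and 0 to 1 and 1 to 2 with all libraries. The difference between cytokines ran from 0 to 4 in replicates 1–3 and from 0 to 1 over all libraries. Leaving out a number leaves 2 libraries a group within a set. The lowest count of a member was 46 reads (Bcl3), which limits the precision there.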
